A study of Mus musculus with 69 samples.

Results

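The lysyl oxidases and the collagen lysyl and prolyl hydroxylases were described across cell types and stressors. The 10 genes were the rows of the count tables whose Ensembl identifiers map to Lox, Loxl1, Loxl2, Loxl3, Loxl4, Plod1, Plod2, Plod3, P4ha1 and P4ha2, out of 56953 genes in the tables. Every one of the 10 had enough counts to be tested in all 23 comparisons.

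These enzymes act on collagen at successive stages. In the endoplasmic reticulum the prolyl 4-hydroxylases, whose catalytic alpha subunits are encoded by P4ha1 and P4ha2, modify proline residues that keep the collagen triple helix stable. The lysyl hydroxylases encoded by Plod1, Plod2 and Plod3 modify lysine residues, with Plod1 acting mainly on the helix and Plod2 mainly on the telopeptides. Outside the cell the copper-dependent lysyl oxidases oxidise lysine and hydroxylysine residues of collagen, and lysine residues of elastin, and so start the cross-links that make the arterial wall stiff and strong. Lox and Loxl1 are the family members best known for elastic fibres.

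The study asked how humoral and metabolic stressors that accompany obesity act, alone and together, on cells of the vessel wall, and whether the epidermal growth factor receptor takes part. WT VSMC had been grown out of the thoracic and abdominal aorta of male C57BL/6 mice as primary vascular smooth muscle cells, and KO VSMC came from animals with a floxed Egfr gene and a Cre recombinase under the SM22 promoter. EC were endothelial cells of the heart, depleted of CD45+ cells and enriched with CD31 beads. Cells received vehicle (Control), 20 mM glucose with free fatty acids, given as 100 µM in the labels and as that concentration of oleate and of palmitate each in the methods (HG + FFA), 30 nM angiotensin II with a catecholamine at 300 nM (AII + NA) or all of these (ALL) for 24 h. The sample labels call the catecholamine epinephrine, while the study's methods call it norepinephrine. Albumin, the carrier of the fatty acids, was in all solutions, and VSMC were kept without serum before treatment, Control included. Libraries came in sets of up to 4 conditions of cells from the same animal, passage and day, with sets 1 to 4 for WT VSMC (16 libraries), sets 5 to 8 for KO VSMC (15 libraries) and sets 9 to 18 for EC (38 libraries). A library each of sets 5 (ALL), 10 (Control) and 15 (AII + NA) was not analysed here. This left n = 3 for ALL in KO VSMC and n = 9 in EC for Control and for AII + NA, beside n = 10 for the other EC groups. A single animal gave sets 17 and 18, and 4 animals gave both VSMC and EC. The labels give all EC as WT, but EC sets 16 and 15 came from the animals of KO VSMC sets 6 and 7, and EC sets 9 and 10 from those of WT VSMC sets 1 and 2. VSMC and EC carry different batch labels, so that batch and cell type cannot be told apart.

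Counts per library lay between 17166133 and 43240489. Egfr RNA in KO VSMC was 0.27% to 0.519% of the WT VSMC mean in sets 6 to 8 and 10.3% in set 5. Set 5 also had the highest summed fibroblast markers (2628 FPM, against 346 to 858 FPM in the other KO VSMC sets) and smooth muscle markers (3237 FPM, against 896 to 1999 FPM). FPM are counts scaled to a common library size with TMM factors, and FPKM divide them by exon length in kilobases. WT VSMC carried fibroblast markers at 2960 to 5584 FPM per set, led by Dcn at 1654 FPM, and smooth muscle markers at 748 to 1271 FPM, most of it Acta2, while Tagln, the gene of SM22, averaged 3.87 FPM. In EC, summed endothelial markers ran from 359 to 5673 FPM over the sets. In EC sets 9, 11 and 13 they stood at 359, 420 and 413 FPM, close to the 251 to 355 FPM of WT VSMC. In WT VSMC most of that sum was Eng, at 296 FPM on average. Fibroblast markers reached 3647 FPM in set 11 and 4275 FPM in set 13. Smooth muscle markers were highest in the same sets, at 3254 and 2959 FPM, and lay at 213 to 840 FPM in the other EC sets. EC sets 9, 11 and 13 went against their label by their endothelial sums. Calls of stressor effects and of cell types in EC are given with and without them. Levels, the spread between sets and correlations are over all sets. Leukocyte markers summed to 33.9 to 196 FPM over the sets of WT VSMC, 13.5 to 141 FPM in KO VSMC and 6.06 to 99.6 FPM in EC, most of it Lyz2 (86.1, 41.3 and 36.7 FPM on average). In WT VSMC 4 of these 5 markers averaged 3 FPM or more, while Ptprc, the gene of CD45, averaged 0.465 FPM. Cardiomyocyte markers summed to 3.27 to 77.8 FPM in WT VSMC, 23.7 to 153 FPM in KO VSMC and 2.32 to 273 FPM in EC, nearly all of it Tnnt2, while Myh6 and Actc1 averaged under 0.1 FPM in each cell type. Mesothelial markers summed to 3.25 to 4.56, 6.32 to 66.5 and 1.56 to 94.6 FPM, led by Upk3b.

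Upstream sequence was found in RefSeq's promoter table (GRCm38.p6) for 5 of the 10 genes, namely Loxl4, Plod1, Plod3, P4ha1 and P4ha2. Those of Plod1, which changed under stressors, and of P4ha1 and P4ha2, whose alternative alpha subunits each form a prolyl 4-hydroxylase with a shared beta subunit, are shown for the 250 bases before the transcription start. Positions are chr4:147936777-147937026 (minus strand) for Plod1, chr10:59323046-59323295 (plus) for P4ha1 and chr11:54100674-54100923 (plus) for P4ha2. Capitals mark matches on either strand to ACGTG, the core of the hypoxia response element, and to CAGAC, a SMAD binding element.
Plod1: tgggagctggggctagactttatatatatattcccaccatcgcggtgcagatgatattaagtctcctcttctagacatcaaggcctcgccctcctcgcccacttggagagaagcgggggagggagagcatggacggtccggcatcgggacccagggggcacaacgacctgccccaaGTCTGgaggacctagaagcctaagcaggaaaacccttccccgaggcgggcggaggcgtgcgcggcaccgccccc
P4ha1: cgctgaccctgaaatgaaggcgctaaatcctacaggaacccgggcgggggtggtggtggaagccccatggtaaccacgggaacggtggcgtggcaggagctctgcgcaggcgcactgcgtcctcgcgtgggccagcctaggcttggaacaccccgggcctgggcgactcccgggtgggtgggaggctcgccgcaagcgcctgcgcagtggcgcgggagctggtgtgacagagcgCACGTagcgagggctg
P4ha2: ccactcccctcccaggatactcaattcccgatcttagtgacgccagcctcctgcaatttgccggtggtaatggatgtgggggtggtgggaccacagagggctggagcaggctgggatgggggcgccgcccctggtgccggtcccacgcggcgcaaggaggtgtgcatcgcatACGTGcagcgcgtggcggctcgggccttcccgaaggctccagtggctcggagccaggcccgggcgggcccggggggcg
The hypoxia core occurred once in each of Plod3, P4ha1 and P4ha2, 54, 16 and 78 bases before the start, and in none of the windows of Plod1 and Loxl4. CAGAC occurred once in Plod1 (74 bases before the start) and once in Loxl4 (226 bases before it). Of all 32851 promoters in the table, 16.6% held ACGTG and 42.2% held CAGAC in the same window. Neither AGGTCA, the nuclear receptor half-site (14% of all promoters), nor a CArG box, the site of serum response factor (1.47%), was in any of the 5 windows.

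The genes lie apart on the GRCm39 assembly. Lox (ENSMUSG00000024529) is on chromosome 18 (52649136 to 52663110, minus strand), Loxl1 (ENSMUSG00000032334) on chromosome 9 (58195014 to 58220495, minus) and Plod1 (ENSMUSG00000019055) on chromosome 4 (147991574 to 148021356, minus). P4ha1 (ENSMUSG00000019916) is on chromosome 10 (59159092 to 59209126, plus) and P4ha2 (ENSMUSG00000018906) on chromosome 11 (53981553 to 54022494, plus). Loxl2 and Loxl3 share 22.7% and 25.3% of their exon bases with other genes, for Loxl2 mainly R3hcc1 and Gm27177 and for Loxl3 Htra2, all on the opposite strand, and the strand setting of the counting is not given in the sources used here. How reads from those stretches were assigned is therefore not known, and values of Loxl2 and Loxl3 are uncertain to that extent. For the other 8 genes the shared part was 0% to 9.4%.

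Per exon length, Lox and Loxl1 were the most abundant of the 10 RNAs in VSMC. In WT VSMC under Control, Loxl1 reached 235 ± 28.7 FPKM and Lox 228 ± 172 FPKM (SD, n = 4), followed by Plod2 at 106 ± 35.1 FPKM. P4ha1 (49.1 ± 9.42 FPKM) and Plod3 (40.2 ± 5.59 FPKM) came next, then Loxl3 (26.1 ± 3.27), Loxl2 (20.0 ± 8.03), Plod1 (16.1 ± 7.76) and P4ha2 (12 ± 5.98 FPKM). Loxl4, a further lysyl oxidase, stood last at 2.69 ± 0.743 FPKM. Most neighbours in this order overlapped over the sets, Lox and Loxl1 included. Only Plod2 over P4ha1, Plod3 over Loxl3 and P4ha2 over Loxl4 did not overlap in WT VSMC. Within libraries Lox was above Plod2 and Loxl2 above Plod1 in 4 of 4 sets, while the other overlapping neighbours kept their order in 2 or 3. KO VSMC kept nearly the same order, with Lox (166 ± 58.1 FPKM, n = 4) before Loxl1 (123 ± 56.9 FPKM). In EC Lox led with 276 ± 208 FPKM (n = 9), ahead of P4ha1 with 69.5 ± 27.5 FPKM, and Plod1 came last but one with 3.97 ± 1.76 FPKM. The ranges of all neighbours overlapped in EC. Within libraries Plod3 was above Loxl3 and Loxl3 above P4ha2 in 9 of 9 sets, and Lox above P4ha1 in 8. The other neighbours kept their order in 3 to 7 of 9 sets.

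**Figure D1:**
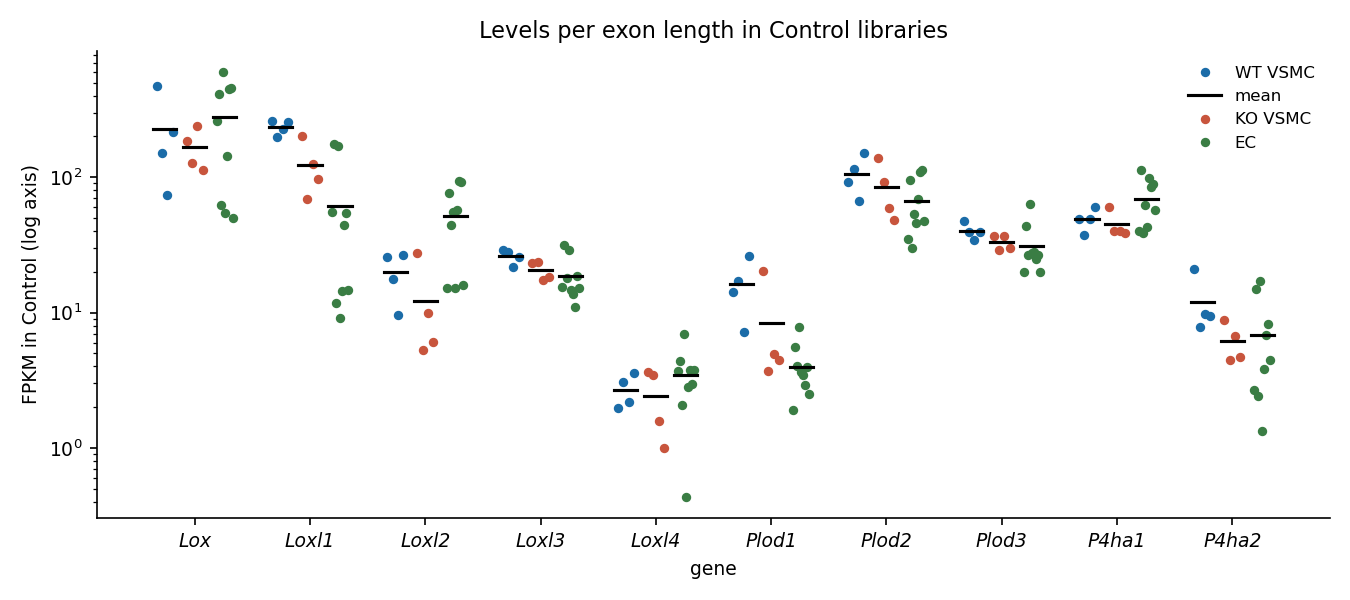
FPKM (log axis) of the 10 genes in Control libraries of WT VSMC (n = 4), KO VSMC (n = 4) and EC (n = 9), with a point for each library and a bar for the mean. Lox and Loxl1 are highest in VSMC, Lox alone leads in EC with points spread over more than an order of magnitude, and Loxl4 has the lowest mean in all cell types.

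Under ALL stressors Lox and Loxl1 rose and Plod1 fell in WT VSMC, and the other 7 genes did not pass the test. These were 3 of 10 called at an FDR under 0.05, where 7.45% of all 16905 genes were called, 3.92% higher and 3.53% lower. At an unadjusted p under 0.05 stood 5 of 10 (21.7% of all genes), and DESeq2 called 4 of 10 (9.73% of all genes). Under Control, Lox was at 2324, 749, 362 and 1054 FPM in sets 1 to 4. Under ALL stressors it was at 3153, 1328, 663 and 1925 FPM. The level rose in every set, but the groups overlapped, because the highest and the lowest set lay further apart than any set from its own Control. Lox thus rose 1.69-fold (log2FC = 0.75 ± 0.11 SE, FDR = 0.000891, edgeR's quasi-likelihood test with the set as a block), and among the 10 genes only Lox met the stricter rule for differentially expressed genes, which 2.22% of all genes met. That rule asks for significance at an FDR of 0.05 with both edgeR and DESeq2, for a change of 0.64 or more on the log2 scale, and for a mean of 3 FPM or more in one group. In bulk RNA, fewer cells of a type and less RNA per cell cannot be told apart.

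Loxl1, the oxidase that binds elastic fibres through fibulin-5, went from 1024, 784, 890 and 1014 FPM under Control to 1278, 1045, 1018 and 1305 FPM under ALL stressors in the same order of sets. Each set rose, and only the Control of set 1 lay above the lowest ALL library, that of set 3. The rise was 1.25-fold (log2FC = 0.32 ± 0.09 SE, FDR = 0.0484) and stood just inside the threshold. It passed it no longer when any one of the sets 1, 2, 3 or 4 was left out (FDR = 0.131, 0.0959, 0.066 and 0.234).

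Plod1, the helical lysyl hydroxylase, was at 136, 162, 68.9 and 248 FPM under Control and at 104, 127, 52.5 and 150 FPM under ALL stressors. All sets fell, most of all set 4, which had the highest level to begin with. The log2FC was -0.46 ± 0.10 SE (FDR = 0.00907), and without set 4 it was -0.37 (FDR = 0.118).

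**Figure D2:**
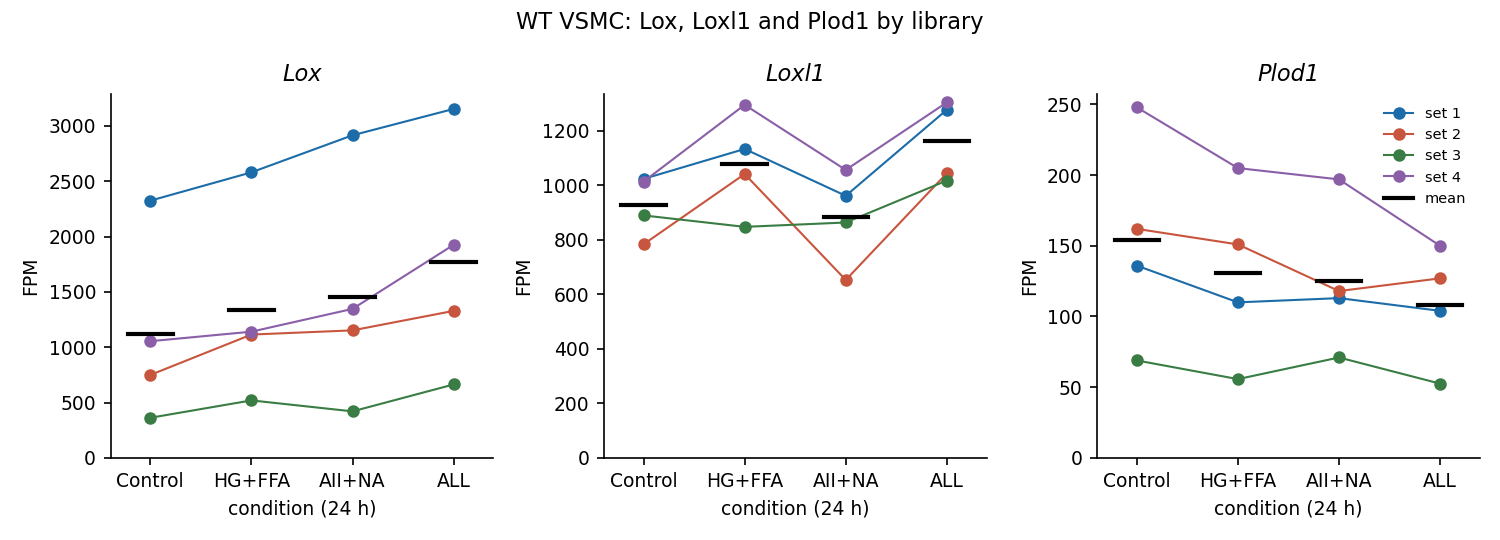
FPM of Lox, Loxl1 and Plod1 in the 16 WT VSMC libraries, with a line for each set through Control, HG + FFA, AII + NA and ALL and a bar for the mean of a condition. Lox rises and Plod1 falls from Control to ALL in all 4 sets, while the highest and the lowest set of Lox lie further apart than the 2 conditions do in any set.

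Among the genes that were not called in WT VSMC, Plod2, the telopeptide lysyl hydroxylase, had a log2FC of -0.24 ± 0.09 SE under ALL stressors (FDR = 0.121), with 3 of 4 sets lower. P4ha1 had 0.24 ± 0.08 SE (FDR = 0.0798), with 4 of 4 sets higher, and was called by DESeq2 (FDR = 0.0289). Plod3, whose product is also a glucosyltransferase of collagen, had 0.15 ± 0.08 SE. For Loxl2, Loxl3, Loxl4 and P4ha2 the log2FC lay between -0.10 and 0.13, and their 95% intervals reached from -0.30 to 0.41 at most. The median over the 10 genes was 0.11, where that of all genes was -0.01.

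Smooth muscle markers, summed per library, ran from 352 to 1188 FPM under Control and from 1074 to 1514 FPM under ALL stressors in WT VSMC. Of these 7 markers 1 was called (Tagln, higher), where 7.45% of all genes were called, and the median log2FC was 0.84. Fibroblast markers ran from 3224 to 6343 FPM under Control and from 2402 to 4981 FPM under ALL, with 0 of 6 called by edgeR and 3 at an unadjusted p under 0.05. Endothelial markers ran from 222 to 347 and from 261 to 366 FPM, with 2 of 9 called (Emcn and Cdh5, lower). Those 2 were low in WT VSMC, at 1.43 and 5.0 FPM on average. Of the cardiomyocyte markers only Tnnt2 could be tested, and it was called higher (1.07 ± 0.29 SE, FDR = 0.0372), with sums of 3.42 to 30.1 FPM under Control and 2.66 to 120 FPM under ALL. Of the leukocyte markers edgeR and DESeq2 called 0 of 5 and 1 had an unadjusted p under 0.05, with 29.3 to 240 FPM and 35.6 to 154 FPM. Of the mesothelial markers edgeR called 0 of 2 and DESeq2 1, with 1 at an unadjusted p under 0.05, at 2.58 to 3.81 FPM and 3.3 to 6.78 FPM. The part of these shifts in the changes of Lox, Loxl1 and Plod1 was not tested.

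Either class of stressor alone left the 10 genes below the threshold in WT VSMC. Under HG + FFA edgeR called 0 of 10 (0.538% of all genes), with 4 at an unadjusted p under 0.05 (11.2% of all genes) and 0 by DESeq2. Under AII + NA edgeR called 0 of 10 (0.0532% of all genes), with 4 at an unadjusted p under 0.05 (9.42% of all genes) and 1 by DESeq2 (1% of all genes). Lox, which DESeq2 called, was at 2915, 1152, 420 and 1346 FPM under AII + NA, above its Control in 4 of 4 sets (log2FC = 0.39 ± 0.11 SE, FDR = 0.205 in edgeR, 0.0267 in DESeq2). It ran from 519 FPM (set 3) to 2580 FPM (set 1) under HG + FFA, again above Control in 4 of 4 sets (log2FC = 0.34 ± 0.11 SE, FDR = 0.202). The effect of ALL stressors on Lox departed by 0.03 ± 0.15 SE (log2) from the sum of both single effects, with a 95% interval from -0.27 to 0.32. For Plod1 the single effects were -0.25 ± 0.10 SE and -0.24 ± 0.10 SE, and the departure from their sum was 0.03 ± 0.14 SE. Plod2 had -0.02 ± 0.09 SE under HG + FFA and -0.33 ± 0.09 SE under AII + NA (FDR = 0.204), the latter with 4 of 4 sets lower. P4ha1 and Loxl1 had the reverse order, with 0.24 ± 0.08 SE and 0.21 ± 0.09 SE under HG + FFA and -0.10 ± 0.08 SE and -0.08 ± 0.09 SE under AII + NA. None of these 4 single effects was called.

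The departure from additivity was called in 0 of 10 genes in each cell type by edgeR, with 0 by DESeq2, and 0% of all genes were called in any of them. At an unadjusted p under 0.05 stood 0 in WT VSMC (1.72% of all genes), 1 in KO VSMC, Lox (6.59%), and 0 in EC (8.42%). ALL stressors against HG + FFA, which gives the gain from the humoral stressors, was called in 0 of 10 by edgeR in WT VSMC (0.0414% of all genes), with 4 at an unadjusted p under 0.05 (10.8% of all genes) and 1, Lox, by DESeq2 (1.33% of all genes). Lox had 0.41 ± 0.11 SE in that comparison (FDR = 0.138 in edgeR, 0.0114 in DESeq2). In KO VSMC and in EC it was called in 0 of 10 by both tools, with 0 at an unadjusted p under 0.05 (2.91% and 5.14% of all genes) and 0% of all genes called. Without EC sets 9, 11 and 13 edgeR called 0 of 10 and 0% of all genes in EC, both for this comparison and for the departure from additivity.

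In KO VSMC none of the 10 genes was called under any stressor by edgeR. For HG + FFA (0.439% of all genes called) 3 had an unadjusted p under 0.05 (12.4% of all genes) and DESeq2 called 0. For AII + NA (0% of all genes called) 2 had an unadjusted p under 0.05 (9.76%) and DESeq2 called 1 (0.0627%). For ALL stressors (0.399% of all genes called) 2 had an unadjusted p under 0.05 (10.5%) and DESeq2 called 1 (1.48%). Lox was at 910, 632, 1183 and 555 FPM under Control in sets 5 to 8, at 1027, 835, 1746 and 875 FPM under AII + NA, and at 666, 1416 and 731 FPM under ALL stressors in sets 6 to 8. AII + NA was above Control in 4 of 4 sets (log2FC = 0.44 ± 0.10 SE, FDR = 0.509 in edgeR, 0.0153 in DESeq2). ALL stressors gave 0.19 ± 0.11 SE and HG + FFA 0.09 ± 0.10 SE. P4ha1 was the other gene that only DESeq2 called. It was at 392, 261, 260 and 249 FPM under Control and at 284, 417 and 376 FPM under ALL stressors in sets 6 to 8, so that sets 7 and 8 rose well above their Control and set 6 little (log2FC = 0.44 ± 0.11 SE, FDR = 0.123 in edgeR, 0.0133 in DESeq2). Under HG + FFA P4ha1 had 0.34 ± 0.10 SE and Loxl2 0.28 ± 0.10 SE. Without set 5 both were called (0.40 with FDR = 0.0452 and 0.44 with FDR = 0.0209), which makes 2 of 10, where 8.57% of all genes were called without that set. Plod1 had log2FC of -0.05, -0.10 and -0.14 under HG + FFA, AII + NA and ALL in KO VSMC. Under ALL its log2 ratio to Control was 0.22, -0.27 and -0.35 in sets 6 to 8, so that the sets did not move together. In WT VSMC these ratios of Plod1 lay between -0.73 and -0.35.

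EC showed no called change of the 10 genes either. Under HG + FFA (3.53% of all genes called) edgeR called 0 of 10, with 3 at an unadjusted p under 0.05 (16.9% of all genes) and 2 by DESeq2 (5.65%). Under AII + NA (0% of all genes called) edgeR and DESeq2 called 0, with 0 at an unadjusted p under 0.05 (6.67%). Under ALL stressors (3.18% of all genes called) edgeR and DESeq2 called 0, with 1 at an unadjusted p under 0.05 (16.2%). The genes that DESeq2 called under HG + FFA were P4ha1 and Loxl4. P4ha1 ran from 252 over a median of 402 to 731 FPM under Control and from 294 over 506 to 853 FPM under HG + FFA, and was higher in 8 of 9 sets (log2FC = 0.19 ± 0.06 SE, FDR = 0.0731 in edgeR, 0.0265 in DESeq2). Loxl4 ran from 2.61 over 22.1 to 41.7 FPM and from 7.86 over 24.1 to 38.1 FPM, with 7 of 9 sets higher (0.39 ± 0.12 SE, FDR = 0.074 and 0.0307). Loxl3 had -0.21 ± 0.08 SE under HG + FFA and -0.22 ± 0.08 SE under ALL stressors, and without set 11 the latter was called (-0.29, FDR = 0.0265, with 3.45% of all genes called). P4ha1 under HG + FFA was called by edgeR without set 16 (0.22, FDR = 0.0399, with 3.29% of all genes called). Without sets 9, 11 and 13 edgeR called 0 of 10 under each stressor, and 2.58% of all genes under HG + FFA and 1.91% under ALL stressors.

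Lox did not move in a common direction in EC. It ran from 245 over a median of 1285 to 2950 FPM under Control and from 202 over 1529 to 3446 FPM under ALL stressors, so that the groups overlapped almost completely. Relative to their own Control, 4 of 9 sets were higher and 5 lower under ALL stressors (log2FC = -0.06 ± 0.07 SE, 95% interval -0.20 to 0.09). Sets 9, 11, 12 and 13 lay above their Control under all 3 stressor conditions, while sets 14, 17 and 18 lay below it under all 3. Of these, sets 9, 11 and 13 are the ones with endothelial marker sums close to WT VSMC. Among the other sets, under ALL stressors, set 12 lay above its Control (0.31) and sets 14 to 18 below it (-0.41 to -0.07). The 3 ratios of a set share its Control library.

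**Figure D3:**
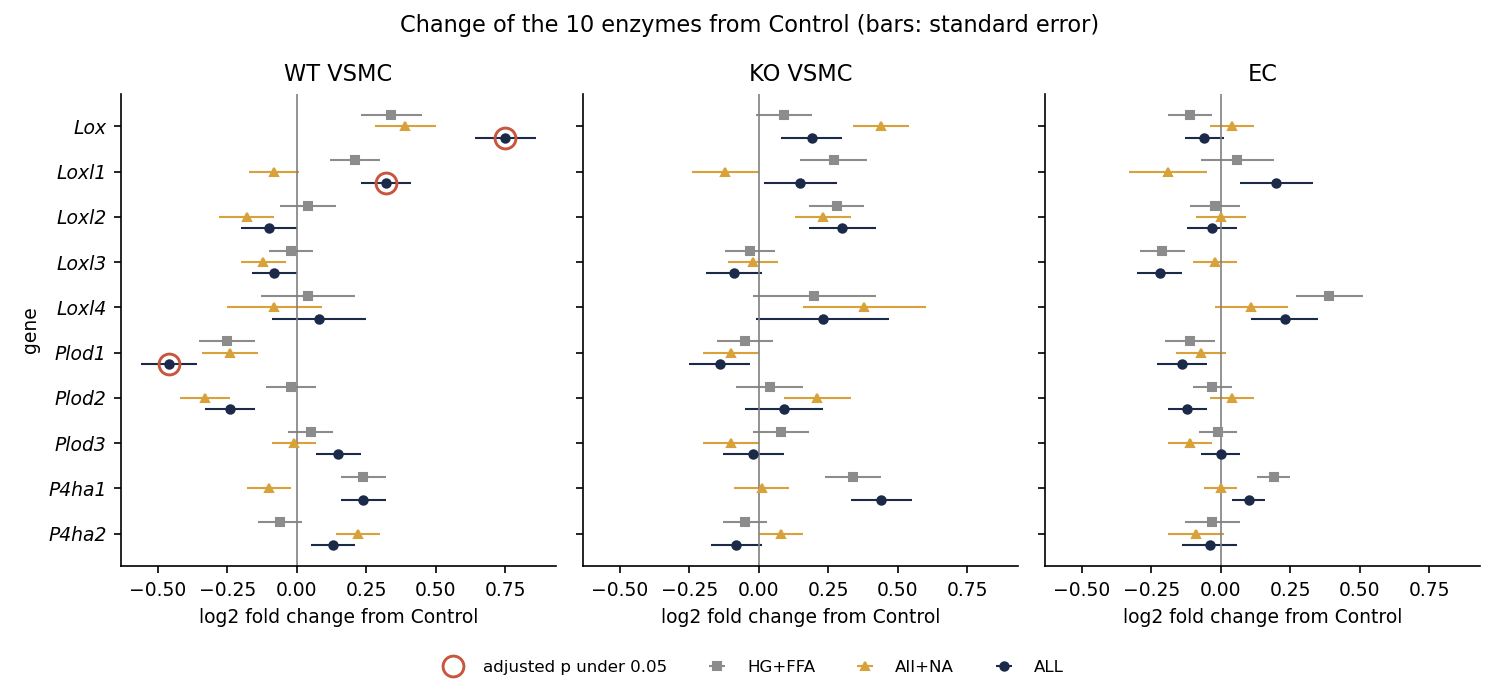
log2 fold change from Control with its SE (bars) for the 10 genes under HG + FFA, AII + NA and ALL, in WT VSMC, KO VSMC and EC. Red rings mark the changes with an FDR under 0.05, which are Lox (0.75), Loxl1 (0.32) and Plod1 (-0.46) under ALL stressors in WT VSMC.

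The difference between cell types was tested on the effects themselves. The effect of ALL stressors on Lox was larger in WT VSMC than in EC by 0.80 ± 0.14 SE (log2, FDR = 0.000921), which made 1 of 10 genes where 0.511% of all 19362 genes were called. DESeq2 also called 1 (0.93% of all genes), and 2 stood at an unadjusted p under 0.05 (6.48%). Leaving out EC sets 9, 11 and 13 gave 0.93 (FDR = 0.00061, with 0.661% of all genes called). For HG + FFA and AII + NA the same difference was 0.46 ± 0.14 SE and 0.35 ± 0.14 SE for Lox (FDR = 1.0 and 0.624). In these comparisons edgeR and DESeq2 called 0 of 10 genes, with 1 and 2 at an unadjusted p under 0.05 (2.05% and 6.5% of all genes), and 0% and 0.0465% of all genes were called. Without those EC sets edgeR again called 0 of 10 in both (0.0208% and 0.026% of all genes). Plod1 differed by -0.33 ± 0.15 SE under ALL stressors (FDR = 0.648), so that a fall particular to WT VSMC was not shown.

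Between the VSMC genotypes edgeR called no difference of effect for the 10 genes. Under HG + FFA (0% of all genes) 0 of 10 were called by edgeR and DESeq2, with 0 at an unadjusted p under 0.05 (3.08%). Under AII + NA (0% of all genes) 0 were called by both, with 2 at an unadjusted p under 0.05 (11.9%). Under ALL stressors (0.0109% of all genes) edgeR called 0, with 3 at an unadjusted p under 0.05 (7.42%) and 1 by DESeq2 (0.316%). That gene was Lox, with an effect of ALL stressors larger in WT VSMC than in KO VSMC by 0.57 ± 0.16 SE (95% interval 0.26 to 0.87, FDR = 0.288 in edgeR, 0.0454 in DESeq2). Under AII + NA the difference for Lox was -0.05 ± 0.15 SE. For Plod2 it was -0.54 ± 0.16 SE under AII + NA (FDR = 0.395), where WT VSMC sets lay below their Control in 4 of 4 cases and KO VSMC sets above it in 3 of 4. For Plod1 it was -0.32 ± 0.15 SE under ALL stressors (FDR = 0.646).

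**Figure D4:**
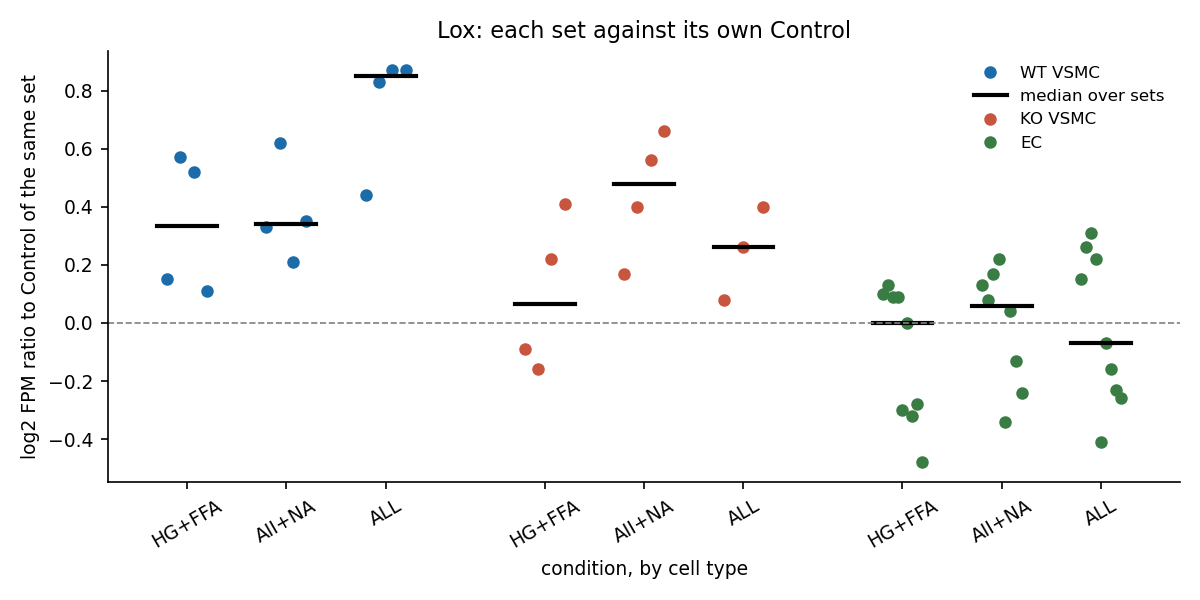
log2 ratio of the FPM of Lox under each stressor to its level under Control in that set, by cell type, with a point for each set and a bar for the median. In WT VSMC the ALL ratios lie between 0.44 and 0.87, in KO VSMC (n = 3) between 0.08 and 0.40, and in EC (n = 9) on both sides of 0, between -0.41 and 0.31.

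The levels before any stressor differed between cell types for Plod1. Under Control it was at 136, 162, 68.9 and 248 FPM in WT VSMC, and ran from 18.3 over a median of 34.9 to 74 FPM in EC, where only set 13 reached above the lowest WT VSMC set. EC had 0.248 times the level of WT VSMC (log2FC = -2.01 ± 0.33 SE, FDR = 0.0035), the only call among the 10 genes by edgeR, where 12% of all 17115 genes were called. Loxl1 had -1.93 ± 0.69 SE (FDR = 0.0784), with 36.0 to 693 FPM in EC against 784 to 1024 FPM in WT VSMC, and these groups did not overlap. Loxl2, which also modifies type IV collagen of basement membranes, had 1.37 ± 0.54 SE (FDR = 0.106). DESeq2 called Plod1, Loxl1 and Loxl2 (3 of 10, against 21.1% of all genes), the same number as at an unadjusted p under 0.05 in edgeR (30.5% of all genes). Without EC sets 9, 11 and 13, edgeR called 5 of 10 lower in EC, namely Plod1 (-2.21), Loxl1 (-3.20), P4ha2 (-1.38), Loxl3 (-0.75) and Plod3 (-0.62), where 28.5% of all genes were called. Without set 11 or set 13 alone, 2 were called (Plod1 and Loxl1, the latter at -2.31 and -2.30), beside 16.6% and 19.4% of all genes.

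KO VSMC had lower point estimates than WT VSMC for all 10 genes under Control, and edgeR called 0 of 10 (0.00622% of all genes), with 2 at an unadjusted p under 0.05 (12.2% of all genes) and 0 by DESeq2. The lowest were P4ha2 (-0.97 ± 0.34 SE, FDR = 0.388), Plod1 (-0.95 ± 0.59 SE, FDR = 0.495) and Loxl1 (-0.94 ± 0.31 SE, FDR = 0.377). Plod1 was at 194 FPM in set 5 and at 35.5, 46.9 and 42.4 FPM in sets 6 to 8, so that set 5 lay among the WT VSMC sets and the others below all of them. Without set 5, 2 of 10 were called, Plod1 (-1.89, FDR = 0.0459) and Loxl1 (-1.29, FDR = 0.0408), beside 2.41% of all genes. Summed fibroblast markers were at 2960 to 5584 FPM in the WT VSMC sets and at 2628 FPM in KO VSMC set 5. In KO VSMC sets 6 to 8 they were at 346 to 858 FPM. The part of cell composition in the differences between genotypes was not tested.

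Sets differed widely in the level of most of the 10 genes. In WT VSMC, 90.3% of the variance of log2 FPM of Lox and of Plod1 lay between sets, and the mean of Lox over conditions went from 491 FPM in set 3 to 2743 FPM in set 1. Loxl1 went from 881 to 1168 FPM there, with 47.0% of its variance between sets, and Loxl3 from 103 to 126 FPM, with 56.5%. In EC the share between sets was 87.7% to 99.1% for the 10 genes, highest for Lox (208 FPM in set 18 to 3244 FPM in set 13). Loxl1 went from 36.2 FPM in set 14 to 798 FPM in set 11, and P4ha2 from 11.3 to 145 FPM in the same sets. Set 11 with low endothelial and high fibroblast and smooth muscle marker sums was highest for Loxl1, Loxl3, Plod1, P4ha1 and P4ha2 among the EC sets. Set 14 with 4633 FPM of endothelial markers was lowest for Loxl1, Loxl2, Loxl4 and P4ha2. The part of cell composition in these differences was not tested.

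**Figure D5:**
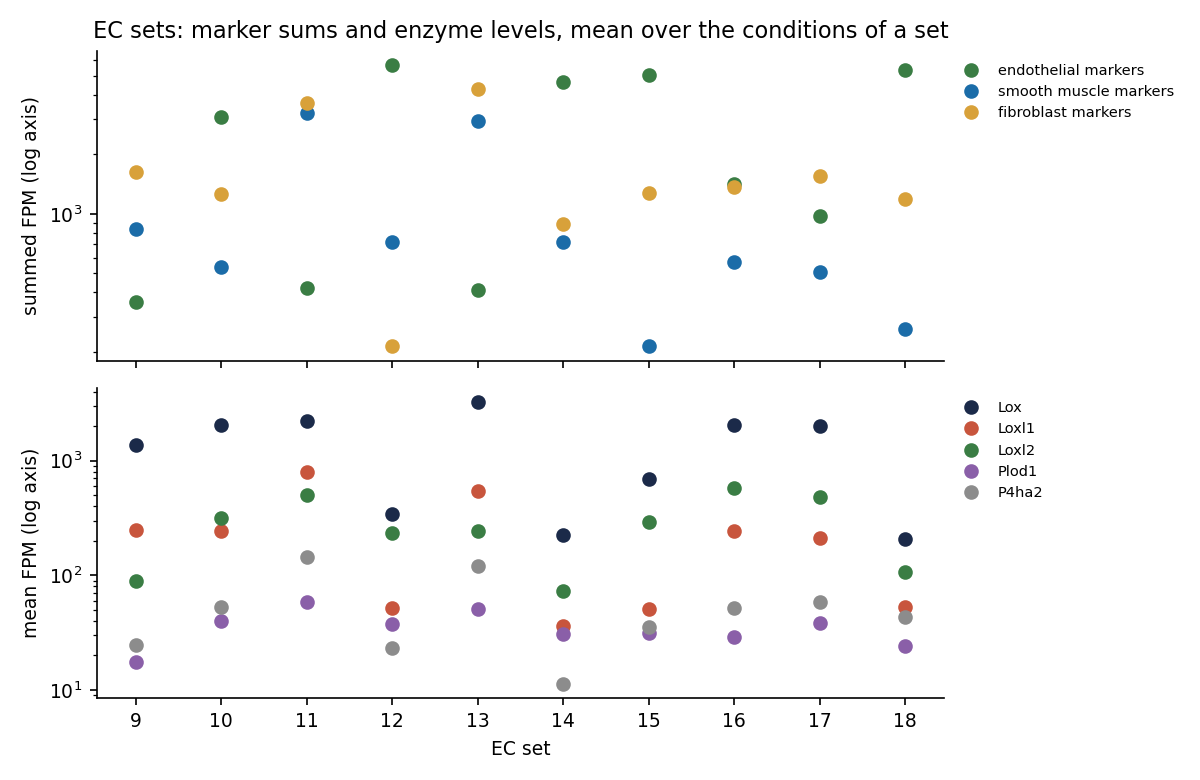
Top, summed FPM (log axis) of endothelial, smooth muscle and fibroblast markers in the 10 EC sets, each point the mean over the conditions of a set. Bottom, mean FPM (log axis) of Lox, Loxl1, Loxl2, Plod1 and P4ha2 in the same sets, where Lox spans 208 to 3244 FPM and Loxl1 36.2 to 798 FPM.

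Genes that work with the 10 enzymes were followed in lists. Of the substrates, 14 genes of fibrillar collagens and elastic fibres, 2 rose and 4 fell under ALL stressors in WT VSMC (7.45% of all genes called). The median log2FC was -0.16. Eln, which encodes elastin, rose by 1.19 ± 0.21 SE on the log2 scale (FDR = 0.00335). Col5a3 (-1.48 ± 0.16 SE), Col3a1 (-0.68 ± 0.15 SE) and Fbn1, the gene of fibrillin-1 (-0.60 ± 0.12 SE), fell. In KO VSMC edgeR called 0 of 14 under ALL stressors, where it called only 0.399% of all genes. At an unadjusted p under 0.05 stood 4 (10.5% of all genes), and DESeq2 called 1 (1.48%). In EC 8 of 14 fell and 0 rose under ALL stressors (median -0.48, with 3.18% of all genes called), and DESeq2 called 9 (5.22%). The largest falls were in Mfap4 (-1.0 ± 0.22 SE), Eln (-0.89 ± 0.25 SE, FDR = 0.0397), Col5a3 (-0.69 ± 0.14 SE) and Col1a2 (-0.64 ± 0.16 SE). HG + FFA alone lowered 7 of 14 in EC (3.53% of all genes called), among them Col1a1 (-0.73 ± 0.19 SE) and Col1a2 (-0.71 ± 0.16 SE). Without EC sets 9, 11 and 13, 9 of 14 fell under ALL stressors (median -0.62, with 1.91% of all genes called). Under HG + FFA 7 of 14 fell without them (median -0.61, with 2.58%). Col1a2 was at -0.85 ± 0.19 SE and -0.92 ± 0.19 SE. Eln had -1.10 ± 0.29 SE under ALL stressors without those sets (FDR = 0.0466), and Mfap4, at -1.19 ± 0.33 SE, was no longer called (FDR = 0.0586). Of the markers of fibroblasts, cells that also make these substrates, edgeR called 0 of 6 in EC under ALL stressors, with 2 at an unadjusted p under 0.05, 1 by DESeq2 and a median of -0.23. Of 9 endothelial markers 1 was called, Emcn, which was higher under ALL stressors (0.40 ± 0.08 SE, FDR = 0.00339) and under HG + FFA (0.37 ± 0.08 SE, FDR = 0.00614). Of 3 mesothelial markers Upk3b was higher under ALL stressors (0.65 ± 0.15 SE, FDR = 0.01). Without sets 9, 11 and 13 Emcn was higher (0.40 ± 0.10 SE) and Vwf lower (-0.52 ± 0.12 SE) under ALL stressors, and Upk3b had 0.53 ± 0.18 SE (FDR = 0.143). The part of cell composition in the fall of the substrates was not tested. The effect of ALL stressors was larger in WT VSMC than in EC for Eln (2.07 ± 0.43 SE, FDR = 0.00751) and for Fbln5, the gene of fibulin-5 (0.94 ± 0.18 SE, FDR = 0.00363), besides Lox, and both were called without those EC sets (2.29 ± 0.43 SE and 1.10 ± 0.16 SE).

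The list of partners in the endoplasmic reticulum held 14 tested genes. Under ALL stressors 3 rose and 2 fell in WT VSMC (7.45% of all genes called), with a median of -0.01. P3h2, a prolyl 3-hydroxylase, had 1.09 ± 0.27 SE, and Tmem38b, a cation channel of the endoplasmic reticulum, 0.63 ± 0.16 SE. P3h4, a partner of lysyl hydroxylase 1, had 0.48 ± 0.09 SE, while P4ha3, a further alpha subunit of prolyl 4-hydroxylase, had -0.52 ± 0.11 SE. In EC 1 rose and 5 fell under HG + FFA (3.53% of all genes called). Under ALL stressors 2 fell in EC (3.18% of all genes), P4ha3 (-0.45 ± 0.11 SE) and Fkbp14 (-0.26 ± 0.07 SE). With EC sets 9, 11 and 13 left out, 1 rose and 4 fell under HG + FFA (2.58% of all genes) and 3 fell under ALL stressors (1.91%). Of 9 genes for procollagen processing and lysyl oxidase activation, Pcolce2 alone was called in WT VSMC under ALL stressors (-0.54 ± 0.12 SE, FDR = 0.0129). EdgeR called 0 of them in EC under ALL stressors, with 1 at an unadjusted p under 0.05 and 0 by DESeq2, and 0 without those sets. Under HG + FFA edgeR called 0 of 9 with all sets, with 3 at an unadjusted p under 0.05 and 2 by DESeq2, and called 2, Pcolce (-0.45 ± 0.12 SE) and Pcolce2 (-0.38 ± 0.09 SE), without them.

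Lox, Plod2, P4ha1 and P4ha2 are textbook targets of hypoxia-inducible factors, and Lox is also induced by TGF-beta. Of 20 other hypoxia targets 1 rose and 2 fell in WT VSMC under ALL stressors (7.45% of all genes called), with a median of 0.07. Pfkfb3 had 0.86 ± 0.19 SE, Ndrg1 -0.49 ± 0.09 SE and Mxi1 -0.38 ± 0.08 SE. In EC under ALL stressors Adm (0.52 ± 0.10 SE) and Pgk1 (0.33 ± 0.09 SE) rose and Ndrg1 (-0.64 ± 0.08 SE) fell. Without EC sets 9, 11 and 13 Adm had 0.73 ± 0.11 SE and Ndrg1 -0.52 ± 0.07 SE, while Pgk1 was no longer called (0.35 ± 0.10 SE, FDR = 0.0622) and Eno1 was (0.33 ± 0.08 SE). Among TGF-beta response genes Tgfb2 rose (0.96 ± 0.17 SE) and Tgfbi fell (-0.76 ± 0.16 SE) in WT VSMC under ALL stressors. In EC 4 of 10 fell and 0 rose under ALL stressors (3.18% of all genes called), Ltbp2 (-0.75 ± 0.12 SE), Tgfbi (-0.73 ± 0.19 SE), Ccn2 (-0.44 ± 0.10 SE) and Timp3 (-0.43 ± 0.10 SE). These 4 were called again without EC sets 9, 11 and 13, at -0.94 to -0.47. The effect was larger in WT VSMC than in EC for Ccn2 (1.12 ± 0.25 SE, FDR = 0.0152) and Tgfb2 (0.99 ± 0.16 SE, FDR = 0.00037), and without those EC sets they had 1.16 ± 0.26 SE and 1.07 ± 0.17 SE and were called. KO VSMC had 0 calls by edgeR under ALL stressors in both lists, where only 0.399% of all genes were called. At an unadjusted p under 0.05 stood 4 in each (10.5% of all genes), and DESeq2 called 1 in each (1.48%).

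After the mean of each set was taken out, Tgfb2 was the gene whose log2 FPM followed Lox most closely over the 69 libraries (Pearson's r = 0.81, among 13079 protein-coding genes), before Nedd9 (0.78) and Myh10 (0.76). Loxl1 was followed by Samd14 (0.86), Lrp10 (0.85) and Ehmt2 (0.83), and Loxl3 by the matrix genes Fbln2 (0.83), Emilin1 (0.81) and Ecm1 (0.81). The closest genes to Plod1 were Cd82 (0.75), Clstn1 (0.74) and Cd248 (0.74). P4ha1 was nearest to Sdc2 (0.81) and Plod3 to Lmf2 (0.85), while Loxl2 and P4ha2 had no gene above 0.70 and 0.67. Among the 10 genes themselves the pairs Loxl1 with Plod3 (0.67) and Loxl3 with Plod1 (0.62) were the most alike, and Lox and Plod1 ran against each other (-0.49). Libraries of a set share their animal and day, and conditions share their treatment, so these values describe the libraries only.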

How the data were processed

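RNA-Seq counts per gene were used as the authors deposited them, in a table each for WT VSMC, KO VSMC and EC. Per the labels, poly(A)-enriched RNA was sequenced, and the submitters' processing notes name HISAT2 2.1.0, featureCounts and the mm39 assembly. By the study's methods multi-mapping reads were counted. Of 56953 genes 56310 were matched to an annotation, and unmatched genes held 0.024% of counts. Genes with low counts were removed with filterByExpr, and edgeR 4.0.16 (R 4.3.3) with TMM factors and quasi-likelihood tests gave log2FC and Benjamini-Hochberg FDR over all genes tested. The set was a block, except between cell types and between VSMC genotypes under Control, where no set is shared. Same-set libraries deviated together (mean correlation over genes 0.797 for WT VSMC, 0.78 for KO VSMC and 0.819 for EC), and the study's methods tie a set to 1 animal. FPKM divide FPM by merged exon length. Set ratios used a pseudocount of 0.1 FPM. The 95% intervals are normal approximations.

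DESeq2 1.42.0, limma 3.58.1 (voom), other size factors, no filter, no block and leaving out each set were alternatives, and leaving out EC sets 9, 11 and 13 was added after seeing the data. The fits were tested on simulated data. The genes and lists were chosen with earlier results of these data known. Genes of a list were named by the largest changes among those called, at most 4 for a comparison, and single marker genes were named after their values were seen. A result of the TGF-beta list is not reported here.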

Additional observations from a re-analysis of the deposited data

Results flagged for a closer look

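In 12 of 110 groups of 4 to 10 libraries 1 library stood apart from the others by Dixon's test. Chance gives about 1 in 20 for independent groups. These groups are not independent, because a set recurs over conditions and genes, so that the 12 cannot be weighed against that rate. KO VSMC set 5, which kept 10.3% of the Egfr RNA of WT VSMC, stood highest in 5 of them. Plod1 there was at 194 FPM under Control (next highest 46.9), 182 FPM under HG + FFA (42.5) and 181 FPM under AII + NA (40.9). Loxl1 was at 795 FPM under AII + NA (368), and P4ha1 at 392 FPM under Control (261).

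EC set 11, with 420 FPM of endothelial, 3647 FPM of fibroblast and 3254 FPM of smooth muscle markers, stood highest in another 5. Loxl1 was at 960 FPM under HG + FFA (next highest 462) and 1028 FPM under ALL stressors (547). Loxl3 was at 167 FPM under HG + FFA (92.7), 173 FPM under AII + NA (110) and 203 FPM under ALL stressors (91.1). In WT VSMC set 1, P4ha2 was at 182 FPM under Control (85.4) and 184 FPM under HG + FFA (82.6). The part of cell composition in these values was not tested.

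The effect of ALL stressors on Lox differed between WT VSMC and EC by 0.80 (log2), tested as an interaction.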

How the results depend on the processing

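Of 3170 alternative values for the 10 genes and their counts, 3017 were rated the same. For a called effect that meant that call and direction were kept. For an effect that was not called it meant no call and a shift within its SE, and for a count a similar count. Sign changes of effects that were not called were not rated, and no effect called in either fit reversed. The fit without the replicate block called 0 of 10 genes in WT VSMC under ALL stressors, in place of 3, and 0 in place of 1 for the WT VSMC to EC difference (Lox 0.57 ± 1.03 SE). The DEG rule left 1 in WT VSMC under ALL. Without a set, the count there was 1 to 2, and Plod1 and Loxl1 lost their calls as given above. DESeq2 called 1 gene in place of 0 under AII + NA in WT VSMC and in KO VSMC, under ALL in KO VSMC, for ALL against HG + FFA in WT VSMC and for the WT VSMC to KO VSMC difference of ALL, 2 in place of 0 under HG + FFA in EC, and 3 in place of 1 between EC and WT VSMC Control. With no filter on low counts, 1 was called in place of 0 under HG + FFA in WT VSMC, AII + NA and ALL in KO VSMC, HG + FFA in EC, ALL against HG + FFA in WT VSMC, and the WT VSMC to KO VSMC differences of AII + NA and ALL, and 2 under AII + NA in WT VSMC. Counts without a set ran from 0 to 2 under HG + FFA in KO VSMC and between the VSMC genotypes under Control (2 without set 5), from 0 to 1 under HG + FFA and ALL in EC, and from 1 to 2 between EC and WT VSMC Control. Complete sets only, which leave out set 5, gave 2 under HG + FFA in KO VSMC. With no filter, 2.42% of all genes were called under HG + FFA in EC. Without a set, 1.43% to 4.19% of all genes were called under HG + FFA in EC and 1.79% to 3.55% under ALL. Between EC and WT VSMC Control that share ran from 3.72% to 19.4%. The share of all genes called moved with the setting, and counts of the 10 genes are to be read beside it. Limma voom over all conditions, with the set as a random block, called 3 between the VSMC genotypes (5.89% of all genes) and 7 between EC and WT VSMC (34.6%). EC sets 9, 11 and 13 were left out as an alternative chosen after seeing the data. That gave 5 in place of 1 between EC and WT VSMC Control, where 28.5% of all genes were called in place of 12%. With the animal as block, 0.781% of all genes were called under ALL in EC, in place of 3.18%. Under HG + FFA that share was 0.916% in place of 3.53%. All calls given for the gene lists in EC are with the set as block. The causes were not tested. Intervals cover the spread between these sets only.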

Other observations

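Under Control, edgeR called 2 of 14 endoplasmic reticulum partners, 2 of 9 processing genes, 0 of 14 substrates, 2 of 20 hypoxia targets and 3 of 10 TGF-beta response genes between EC and WT VSMC, where 12% of all genes were called and batch and cell type cannot be told apart. For the substrates 5 had an unadjusted p under 0.05 and DESeq2 called 2. In the endoplasmic reticulum list P3h2, a prolyl 3-hydroxylase, was higher in EC by 3.98 ± 0.86 SE (log2, FDR = 0.012 in edgeR), and P4ha3, an alpha subunit of prolyl 4-hydroxylase, by 2.36 ± 0.33 SE (FDR = 0.00152). Of the processing genes Pcolce2, which encodes an enhancer of procollagen C-proteinase, was higher by 2.84 ± 0.62 SE, and Fn1, the gene of fibronectin, by 1.86 ± 0.34 SE. Among TGF-beta response genes Smad7 (2.31 ± 0.46 SE), Tgfb2 (2.14 ± 0.40 SE) and Skil (1.26 ± 0.30 SE) were higher in EC. Adm, a hypoxia target that encodes adrenomedullin, was lower in EC (-2.43 ± 0.39 SE, FDR = 0.00308). Without EC sets 9, 11 and 13, which had low endothelial marker sums, 28.5% of all genes were called, and 5, 5, 4, 2 and 3 genes of these lists in the same order. The genes named above were called there too, with Adm at -2.87 ± 0.29 SE. P4hb (-0.87 ± 0.21 SE), Ppib (-0.84 ± 0.21 SE) and Crtap (-0.56 ± 0.19 SE) of the endoplasmic reticulum list were lower in EC. Of the processing genes 2 were higher in EC, Pcolce2 and Fn1, and 3 were lower. Among the lower ones were Pcolce (-2.54 ± 0.45 SE) and Adamts2 (-2.45 ± 0.61 SE).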
